A study of Mus musculus with 11 samples.

Results

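The genes described here encode the proteins of the cytosolic ribosome. They were found by symbol, as every gene named Rpl or Rps followed by a number and at most a letter a, x or y, together with *Rpsa*, *Rplp0*, *Rplp1* and *Rplp2*, and without pseudogenes and the ribosomal S6 kinases. The rule used no measured value and found 75 of the 18305 genes of the count table, 45 of the large and 30 of the small ribosomal subunit. They were followed in 27 mouse libraries made from bulk RNA by CEL-Seq2, which reads a tag near the 3′ end of each transcript. C57BL/6 females aged 8 to 12 weeks gave 3 oviduct tissue libraries, 3 from ovary surface epithelium (OSE) tissue, 3 from organoids of the oviduct and 2 from organoids of the OSE, a further OSE organoid line having been set aside for contamination. Oviductal organoids of mice with a Cas9-P2A-EGFP cassette in the ROSA26 locus, expressed in all cells, gave 3 libraries (Cas9-GFP organoids). The 3 TBP clone libraries came from clonal Cas9-GFP oviductal organoids, after guides against tumor suppressor genes, *Trp53* and *Brca1* among them, and selection with Nutlin-3a. The paper describes 2 independent clones per combination of mutations, and how the 3 libraries relate to these is not stated. The 6 TBP tumors grew from such clones under the skin of immunodeficient NSG mice and so hold cells of the host. From such tumors came 4 organoid lines kept in Nutlin-3a, labelled T1-mes and T3-mes (mesenchymal look) or T2-epi and T4-epi (epithelial look). The paper traces these lines to the same original TBP clone. Cas9, GFP and a mixed B6J.129(B6N) background are thus shared by the clones, the tumors' grafted cells and the tumor-derived organoids, and were present in none of the C57BL/6 libraries.

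A ribosome joins a large and a small subunit, each a core of ribosomal RNA wrapped by many proteins. The proteins are needed in near equal amounts, and their genes are among the most strongly expressed in every dividing cell. Many of their mRNAs begin at the cap with an unbroken run of C and T, the 5′ terminal oligopyrimidine tract, through which mTOR and LARP1 set their translation. Some members have further roles outside the ribosome. *Rpl5* and *Rpl11* encode proteins that bind MDM2 and stabilise p53, *Rpsa*, of the small subunit, encodes the laminin receptor precursor, and *Rps6* encodes the target of the S6 kinases. *Rps19* is the gene most often mutated in Diamond-Blackfan anaemia.

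Totals ranged from 82239 counts in TBP clone 1 to 4531767 in TBP clone 3, and TBP clone 1 is too shallow to measure weakly counted members. Each of 37 pairs of replicates differed by more than counting error, with a lowest chi-square per gene of 2.77. *Trp53*, targeted in the clones, had 34.5 to 61.0 CPM (counts scaled to 1e6 per library, with TMM factors over the 27 libraries) in Cas9-GFP organoids and 0, 0.536 and 5.02 CPM in TBP clones 1, 2 and 3. The labels were checked against cell type markers: 11 granulosa and steroidogenic genes summed to 9904 to 12116 CPM in OSE tissue against 70.4 to 283 CPM in oviduct tissue, and 15 epithelial genes to 479 to 576 CPM against 1994 to 2508 CPM. The OSE tissue RNA thus holds granulosa and steroidogenic transcripts. Markers of OSE were not checked, so the share of surface epithelium in this RNA is not known, and the name is kept here only as the label. *Cldn7*, *Ovol1* and *Ovol2* were at 3 counts or fewer in each OSE tissue library. In bulk RNA, fewer cells of a type and less RNA per cell cannot be told apart. Tissue and tumor RNA was taken with Trizol and organoid RNA with a column kit, so that this step and culture cannot be told apart.

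The bases around the start sites are shown for the members whose levels are described most, 15 bases before and 15 from the RefSeq start on in GRCm38.p6, 5′ to 3′ on the strand of the gene, with the longest run of C or T in capitals. *Rps19* has 3 RefSeq starts, of which the one with the longest run is shown; at the others the run is 4 bases.
Rpl28 (chr7:4792950-4792979, plus strand): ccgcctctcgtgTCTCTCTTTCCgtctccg
Rpl18 (chr7:45718056-45718085, plus strand): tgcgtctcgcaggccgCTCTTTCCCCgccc
Rps6 (chr4:86857353-86857382, minus strand): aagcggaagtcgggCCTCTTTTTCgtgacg
Rps19 (chr7:24884898-24884927, plus strand): gagggagcggggtgtggagggCTCTCCCac
Rpl12 (chr2:32961697-32961726, plus strand): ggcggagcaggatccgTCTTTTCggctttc
Rps2 (chr17:24720048-24720077, plus strand): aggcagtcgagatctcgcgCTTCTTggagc
Rpsa (chr9:120127751-120127780, plus strand): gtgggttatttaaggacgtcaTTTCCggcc
Rpl5 (chr5:107900513-107900542, plus strand): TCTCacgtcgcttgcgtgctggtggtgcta
The run spans or directly follows the annotated start in *Rpl28*, *Rpl18*, *Rpl12* and *Rps6*, and it is short in *Rpsa* and *Rpl5*. Of the 55 members with a RefSeq promoter entry, 25 (45.5%) had a run of 8 or more in this window, against 13.9% of 27025 genes. The letters CTTTCC within 25 bases of the start, on the sense strand, occurred in 18.2% of members against 2.92% of all genes, and is itself a run of C and T. In the window from 250 bases before to 50 after the start, on both strands, CCGGAAG (the core bound by ETS factors) occurred in 40.0% of members against 9.93%, and AAGATGG (a core bound by YY1) in 16.4% against 7.28%. In that wider window CTTTCC occurred in 50.9% against 29.3%. Within 25 bases of the start, on the sense strand, CCGGAAG occurred in 9.09% against 2.00% and AAGATGG in 1.82% against 0.818%. None of these matches shows that a factor binds there.

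The members took between 5.28% (T3-mes) and 13.1% (OSE organoids 1) of all counts. Oviduct tissue had shares of 7.75%, 7.32% and 8.81%, and OSE tissue had 11.5%, 10.6% and 11.4%, with no overlap between the tissues. Oviductal organoids were at 7.51%, 6.998% and 7.49% and Cas9-GFP organoids at 7.79%, 7.48% and 7.78%. The OSE organoid lines were at 13.1% and 9.04%. TBP clones 1, 2 and 3 had 10.7%, 6.49% and 7.98%, of which the highest belongs to the library of 82239 counts. The 6 tumors lay between 5.29% and 8.02% (median 6.83%), and the tumor-derived organoids at 7.49%, 6.35%, 5.28% and 6.80% for T1-mes, T2-epi, T3-mes and T4-epi. OSE tissue stood above oviduct tissue also when the mitochondrially encoded genes were left out of the total (11.98% to 12.8% against 8.73% to 10.9%). When the 10 other genes of highest mean share were left out, the gap narrowed to 11.8% to 12.6% against 9.76% to 11.6%.

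**Figure D1:**
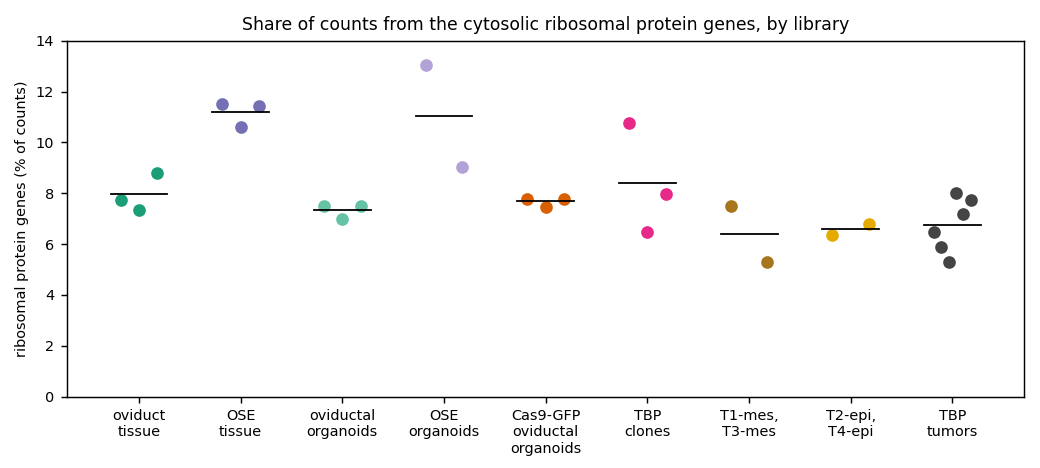
Share of all counts that fell on the 75 cytosolic ribosomal protein genes (y axis, percent), 1 point per library, with the mean of each group as a bar; mes and epi organoids are shown apart. OSE tissue lies between 10.6% and 11.5%, and the 2 OSE organoid lines lie at 13.1% and 9.04%.

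Not all members could be measured. *Rps27* reached at most 1 count and *Rplp2*, a protein of the ribosomal stalk, at most 2 counts in any library, and both are at or below the floor of 3 counts used here. *Rpl30* reached at most 7 and *Rpl34* at most 10 counts, the highest counts of both lying in tumors. These 4 were tested in no comparison. Of 75-base windows in the last 300 bases of the principal GENCODE vM21 transcript, the share found unchanged in a transcript of another gene was 100% for *Rps27*, 77.9% for *Rpl30* and 49.1% for *Rpl34*, but 0% for *Rplp2*. Reads that fit several places were not kept by the authors. Over all members, 28 shared no window, 24 shared over 50% of their windows but not all and 4 (*Rpl10*, *Rpl36a*, *Rpl9*, *Rps27*) shared all of them, and *Rpl10* still had a median of 2619 CPM before TMM scaling. Levels of different members are not compared, since the tags do not scale with transcript length and the end used may differ from the annotated one. *Rpl26* was not analysed here.

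**Figure D2:**
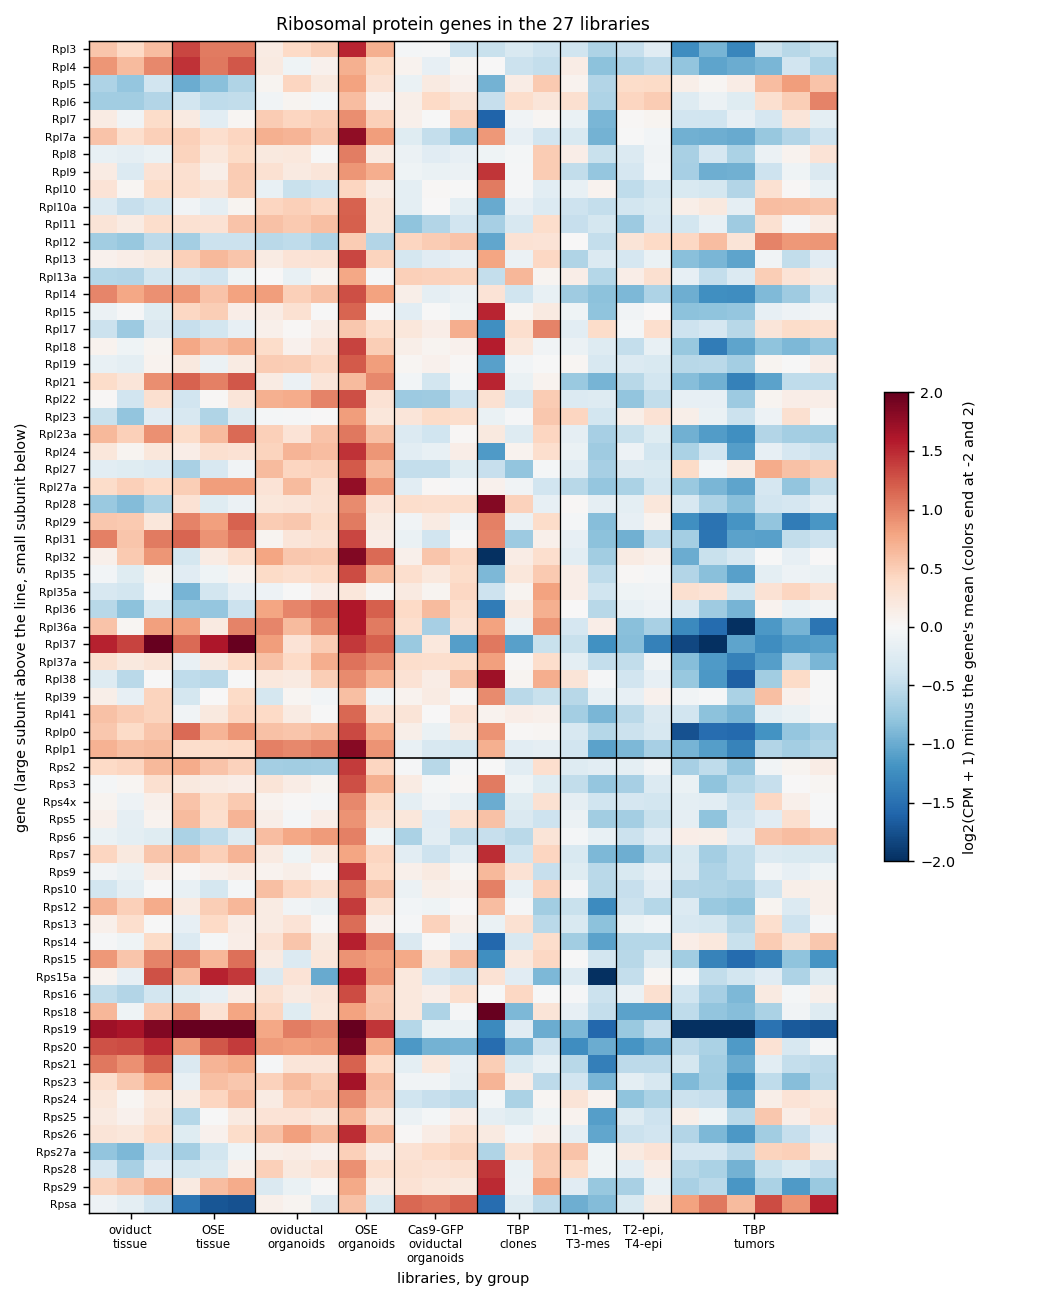
Each row is 1 of 67 members, drawn from the 71 with more than 10 counts in some library, and each column 1 of the 27 libraries; color gives log2(CPM + 1) minus the gene's mean over the libraries. The column of OSE organoids 1 is above that of OSE organoids 2 in nearly every row, in line 1 over line 2 by a median log2 ratio of 0.67.

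Between the tissues, 10 of the 71 members tested were higher and 2 lower in OSE tissue, and *Rpsa* had the largest log2 fold change. The 12 members called are 16.9% of those tested, below the 51.1% called among all 8787 genes (24.3% higher, 26.9% lower). The median log2 fold change of the members was 0.11, that of all genes -0.00. Scaling by total counts alone gave 39 higher and 1 lower and a median of 0.48, while the median of all genes then moved to 0.37. One fit of all 27 libraries gave 0 higher and 1 lower. The share of all genes called in such other fits, here and below, is not given. *Rpsa* (GRCm38 chr9:120127689-120132369, plus strand, GENCODE vM21) had 482, 404 and 394 CPM in OSE tissue and 1236, 1159 and 1017 CPM in oviduct tissue. The groups did not overlap, and the log2 fold change was -1.44 (SE 0.16, adjusted p = 3.53e-06, edgeR's quasi-likelihood test as for all adjusted p-values here). The tissues did not overlap in 32.4% of the members tested and 59.2% of all genes tested. *Rps21*, of the small subunit, was called lower as well (log2 fold change -0.62, SE 0.23, adjusted p = 0.037), but not without OSE tissue 1 (-0.34, adjusted p = 0.10), without oviduct tissue 1 (adjusted p = 0.059) or without oviduct tissue 3 (adjusted p = 0.069). Among large subunit members the highest were *Rpl28*, at 761, 525 and 569 CPM in OSE tissue against 370, 338 and 400 CPM (log2 fold change 0.72, SE 0.17, adjusted p = 0.0026), *Rpl18* (0.67, SE 0.15) and *Rpl3* (0.60, SE 0.17). *Rpl3* encodes a protein beside the peptidyl transferase centre. The count of members higher was 4 without oviduct tissue 1 and 5 without oviduct tissue 2. Granulosa and steroidogenic genes (11 of 11 tested) and proliferation genes (22 of 23) were higher in OSE tissue and epithelial (11 of 12), smooth muscle (10 of 10) and ciliated cell genes (9 of 9) lower, and their part in the members' levels was not tested.

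Oviductal organoids differed from oviduct tissue in both directions, with 19 of 71 members higher and 11 lower. This is 42.3% of the members against 42.9% of all 9477 genes (18.7% higher, 24.2% lower), a share like the background. *Rpl36* of the large subunit rose most, from 342, 284 and 408 CPM in tissue to 867, 988 and 1087 CPM in organoids (log2 fold change 1.49, SE 0.19, adjusted p = 5.2e-05). *Rpl28* (0.99, SE 0.15), *Rpl5* (0.80, SE 0.18) and *Rpl22* (0.78, SE 0.20), the last known for binding a small RNA of Epstein-Barr virus, were also called higher. On the small subunit *Rps6* rose from 815, 780 and 755 CPM to 1371, 1526 and 1608 CPM (0.92, SE 0.15, adjusted p = 0.00046), and *Rps27a*, which encodes ubiquitin fused to a ribosomal protein, from 919, 853 and 1190 CPM to 1728, 1767 and 1687 CPM (0.79, SE 0.17, adjusted p = 0.0030). In both cases the groups did not overlap, as in 62.0% of the members and 54.6% of all genes tested. *Rps2* fell, from 519, 533 and 621 CPM to 247, 243 and 245 CPM (-1.20, SE 0.16, adjusted p = 7.8e-05). *Rps21* (-0.91, SE 0.17) and *Rps19* (-0.84, SE 0.17) were lower too, as was *Rpl37* (-1.18, SE 0.31), at 15 to 44 counts per library and no longer called without oviduct tissue 3 (-0.91, adjusted p = 0.052). The number of members higher fell to 11 without oviduct tissue 1, and to 6 (with 5 lower) when all 27 libraries shared a fit. Fibroblast genes (15 of 15 tested) and smooth muscle genes (10 of 10) were lower and epithelial genes (11 of 14) higher in the organoids, and their part in the members' levels was not tested.

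In OSE organoids against OSE tissue, 20 of 71 members were called higher and 0 lower, and the median log2 fold change was 0.61 against -0.06 for all genes. Among all 10232 genes 14.5% were higher and 18.6% lower. At an unadjusted p under 0.05 there were 29 members higher and 0 lower, and DESeq2 called 22 higher and 1 lower. *Rpl36* rose again, from 297, 293 and 375 CPM to 1525 and 1149 CPM (log2 fold change 2.07, SE 0.25, adjusted p = 0.0018). *Rpsa* followed, from 482, 404 and 394 CPM to 1993 and 1074 CPM (1.86, SE 0.31, adjusted p = 0.00535). Organoids and tissue did not overlap in either gene, as in 52.1% of the members and 59.6% of all genes tested. *Rpl5* (1.39, SE 0.27, adjusted p = 0.0089) and *Rpl32* (1.48, SE 0.31, adjusted p = 0.0115) were called as well, but *Rpl5* was not called without OSE tissue 2 (adjusted p = 0.066), and *Rpl32* not without OSE tissue 1 (adjusted p = 0.055) or OSE tissue 2 (adjusted p = 0.054). The count turned on single libraries: it was 3, 2 and 6 higher without OSE tissue 1, 2 and 3. Fits without an OSE organoid line leave 1 library in that group, whose spread is then not measured. The counts of those fits are not listed here and enter only the ranges over all such fits given further below. With 1 library left out the median was 0.22 to 0.92. By total counts alone 6 members were higher and 2 lower, with a median of 0.18 against -0.50 for all genes. Granulosa and steroidogenic genes summed to 9904 to 12116 CPM in the tissue and 8.39 to 26.8 CPM in the organoids, and 9 of 23 proliferation genes tested were lower in the organoids; the part of either was not tested.

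The OSE organoid lines themselves differed across the members. Of 68 members with more than 50 counts in either line, 67 were higher in line 1, with a median log2 ratio of 0.67. Of all 5270 genes past the same count 48.7% were higher in line 1, with a median of -0.02. Against oviductal organoids 70 of 71 members had a higher mean in OSE organoids (median log2 fold change 0.52 against 0.00 for all genes), yet edgeR called 0 of them, 15 having an unadjusted p under 0.05, and 0.0864% of all 9257 genes were called. DESeq2 called 1, *Rps2*, at 1042 and 531 CPM in OSE organoids and 247, 243 and 245 CPM in oviductal organoids (log2 fold change 1.67, SE 0.32, edgeR adjusted p = 0.16). Without OSE organoids 2 the median of the members was 0.77, and without OSE organoids 1 it was 0.16. Each of these fits leaves 1 OSE organoid library, whose spread is then not measured. Their calls are not listed here and enter only the ranges given further below.

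Whether culture moved the members alike in both origins was tested by an interaction term over the 4 groups concerned. It was past the threshold for *Rpsa* (OSE change minus oviduct change 1.58 on the log2 scale, SE 0.34, adjusted p = 0.0106) and *Rps2* (1.51, SE 0.34, adjusted p = 0.0129), 2.82% of 71 members against 11.7% of 11458 genes (6.68% higher). *Rpsa* was lower in OSE tissue than in oviduct tissue and not called between the organoids (0.23, SE 0.33). *Rps2* was not called between the tissues (0.08, SE 0.16). With 1 library left out the difference was 1.10 to 1.94 for *Rpsa* and 0.98 to 1.89 for *Rps2*. DESeq2 called 7 members. Counts of fits that leave 1 OSE organoid library are not listed here and enter only the range given further below. These comparisons share libraries with those above.

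**Figure D3:**
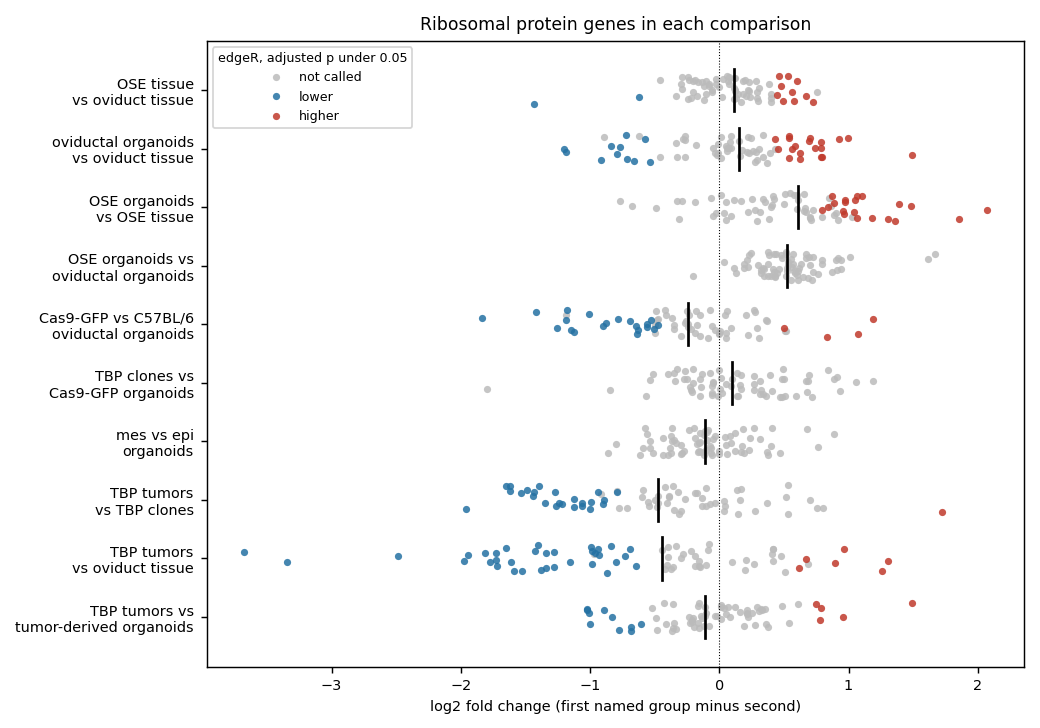
Log2 fold change of each tested member (points, x axis; first group minus second) in the 10 comparisons, red where called higher, blue where called lower and gray where not called by edgeR at an adjusted p under 0.05; black bars are medians over the members. Points are moved up or down within a row so that they do not cover each other. The 2 rows with most blue points compare TBP tumors with TBP clones (24 lower) and with oviduct tissue (34 lower).

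Cas9-GFP organoids differed from C57BL/6 oviductal organoids, also grown from oviduct but from mice of another background, in 24 of 70 members, 4 of them higher and 20 lower. Among all 8323 genes 26.3% were called (13.0% higher, 13.3% lower), and among the members 34.3% (median log2 fold change -0.24, all genes 0.00). With total counts alone the split was 11 higher and 10 lower, the median being -0.04 and that of all genes 0.21. *Rps20* was lowest, at 290, 333 and 339 CPM against 1162, 1138 and 1161 CPM (log2 fold change -1.84, SE 0.16, adjusted p = 1.65e-05). *Rpl22* was at 207, 211 and 259 CPM against 564, 573 and 685 CPM (-1.42, SE 0.18, adjusted p = 0.000175), and *Rplp1*, of the ribosomal stalk, at 1233, 1105 and 1082 CPM against 2773, 2661 and 2783 CPM (-1.26, SE 0.16, adjusted p = 0.00017). The replicates lay close together and the groups did not overlap, as in 65.7% of the members and 42.4% of all genes tested. *Rps19* (-1.19, SE 0.20), *Rps6* (-1.18, SE 0.18) and *Rpl11* (-1.15, SE 0.17) were lower as well. *Rpsa* went the other way, at 2927, 2849 and 3033 CPM against 1424, 1378 and 1090 CPM (1.19, SE 0.17, adjusted p = 0.00037), as did *Rpl12* at 1258, 1335 and 1391 CPM against 643, 657 and 612 CPM (1.07, SE 0.16, adjusted p = 0.00048). *Rpl13a* was also called higher (0.50, SE 0.16, adjusted p = 0.033), but not without any 1 of the 6 libraries (adjusted p 0.052 to 0.13). Without Cas9-GFP organoids 1 the number lower was 12, and one fit of all 27 libraries gave 2 higher and 10 lower. Of proliferation genes 6 of 19 tested were higher in Cas9-GFP organoids, and of epithelial genes 6 of 14 were lower and 1 higher. Ciliated cell genes summed to 15.5 to 64.2 CPM against 97.3 to 199 CPM in C57BL/6 oviductal organoids. Fibroblast genes summed to 12.1 to 21.0 CPM against 84.4 to 180 CPM. The part of these genes in the members' levels was not tested. The labels give no sequencing batch, and mouse background and any batch cannot be told apart.

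TBP clones against Cas9-GFP organoids gave 0 calls among 69 members by edgeR, with 4 at an unadjusted p under 0.05, where 0.817% of 7708 genes were called (0.389% higher, 0.428% lower). *Rpsa* came nearest. It had 458, 1112 and 916 CPM in clones 1, 2 and 3 against 2927, 2849 and 3033 CPM, with no overlap (log2 fold change -1.80, SE 0.38, adjusted p = 0.053). It was the single call of DESeq2 (-1.83, adjusted p = 0.00013) and was called by edgeR without clone 1 (-1.57, adjusted p = 0.043) or clone 2 (-2.05, adjusted p = 0.028). With any 1 Cas9-GFP library left out its adjusted p was 0.177 to 0.295. Clones and Cas9-GFP organoids did not overlap in 13.0% of the members and 17.6% of all genes tested. The median of the members was 0.10 and fell to -0.06 without clone 1.

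Between the 2 mes and the 2 epi tumor-derived organoid lines no member of 71 was called by edgeR or DESeq2, 1 having an unadjusted p under 0.05 by edgeR, while 1.13% of 9775 genes were called (1.0% higher, 0.123% lower). *Rpsa* had 672 CPM in T1-mes and 729 CPM in T3-mes against 1066 CPM in T2-epi and 1492 CPM in T4-epi (log2 fold change -0.86, SE 0.35, adjusted p = 0.36). The median was -0.11, and it was -0.31 without T1-mes and 0.04 without T3-mes. *Rps21* stood at 577 CPM in T3-mes and at 1014 to 1036 CPM in the other 3 lines.

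**Figure D4:**
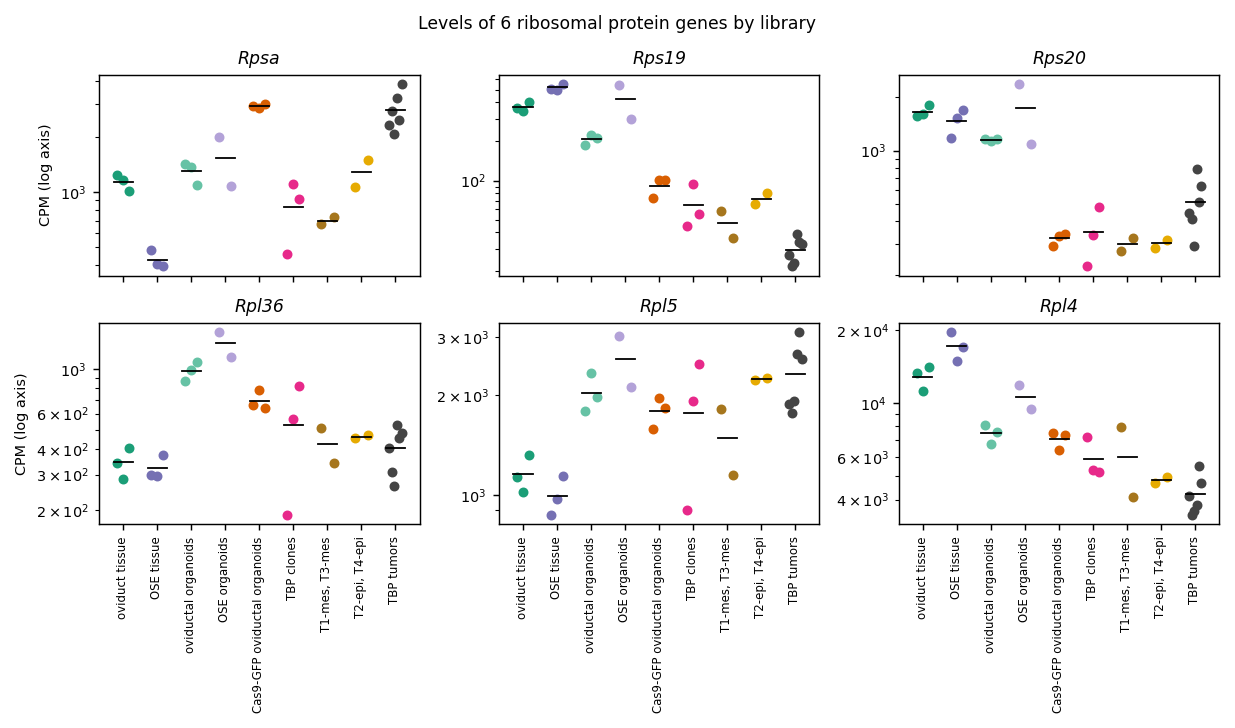
Level of 6 members (y axes, CPM on a log scale) in each library, 1 point per library and a bar at the mean of each group. *Rpsa* is highest in Cas9-GFP organoids and tumors, *Rps19* lies at 21.8 to 38.8 CPM in tumors, and *Rpl36* and *Rpl5* are higher in organoids of C57BL/6 mice than in their tissues.

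Tumors were also compared with TBP clones, and the labels do not say which clone gave which tumor. Against TBP clones 24 of 70 members were lower and 1, *Rpsa*, higher, where 31.8% of 10473 genes were called (20.1% higher, 11.7% lower). The median of the members was -0.48 and that of all genes 0.16. By total counts alone 4 were higher and 17 lower. *Rpl36a* was at 22.7 to 52.6 CPM in the 6 tumors (median 38.9) and at 179, 93.2 and 188 CPM in the clones (log2 fold change -1.96, SE 0.31, adjusted p = 0.00099). *Rpl18* lay at 245 to 383 CPM (median 360) against 1933, 754 and 616 CPM (-1.65, SE 0.33, adjusted p = 0.0039; -1.05 without the shallow TBP clone 1, adjusted p = 0.0082), and *Rps29* at 411 to 638 CPM (median 570) against 2592, 848 and 1599 CPM (-1.62, SE 0.32, adjusted p = 0.0032). Tumors and clones did not overlap in these 3 genes, as in 28.6% of the members and 34.2% of all genes tested. The stalk protein gene *Rplp0*, often used as a reference gene, was at 107 to 228 CPM in tumors (median 141) against 670, 367 and 370 CPM (-1.53, SE 0.31, adjusted p = 0.0039). *Rpsa* was at 2062 to 3889 CPM in tumors (median 2606), above each clone (1.72, SE 0.37, adjusted p = 0.0055). The number lower was 15 without TBP clone 1 and 15 without TBP tumor 2, and *Rpsa* was called in each of the 9 fits without 1 library. Fibroblast (16 of 16 tested), myeloid (9 of 11), smooth muscle (7 of 8) and endothelial genes (6 of 8) were higher in tumors and 4 of 15 epithelial genes lower, and their part in the members' levels was not tested.

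Tumors against normal oviduct tissue gave 34 members lower and 6 higher of 71. That is 56.3% of the members against 46.1% of 10827 genes (23.7% higher, 22.4% lower), most of them lower. By total counts alone 29 were lower and 14 higher, with a median of -0.14 in place of -0.44, while the median of all genes moved from 0.08 to 0.40. *Rps19* (chr7:24884371-24889806, plus strand) was furthest from tissue, at 21.8 to 38.8 CPM in tumors (median 29.6) and 359, 343 and 401 CPM in tissue (log2 fold change -3.68, SE 0.20, adjusted p = 2.2e-06). *Rpl37* was at 1.75 to 4.40 CPM, or 2 to 13 counts, against 31.9, 27.6 and 47.7 CPM (-3.35, SE 0.32, adjusted p = 4.4e-05). No tumor reached a tissue library in either gene. Tumors and tissue did not overlap in 53.5% of the members and 45.1% of all genes tested. In Cas9-GFP organoids *Rps19* was at 73.6, 100 and 101 CPM. The tumors' grafted cells came from Cas9-GFP mice and the tissue from C57BL/6 mice, so tumor and mouse background cannot be told apart. *Rplp0* (-1.72, SE 0.25), *Rplp1* (-1.53, SE 0.19), *Rpl3* (-1.34, SE 0.23) and *Rpl41* (-0.93, SE 0.21) were lower too. The 6 members called higher were *Rpl12*, at 1125 to 1856 CPM (median 1570) against 578, 555 and 655 CPM (1.31, SE 0.21, adjusted p = 0.00070), *Rpsa* (1.26, SE 0.23), *Rpl5* (0.96, SE 0.23), *Rpl10a*, *Rpl27* and *Rpl6*. Their number was 3 without any 1 of the oviduct tissue libraries. Of the 6 members higher 0 had a run of C or T of 8 or more at the start. Of the 23 lower members with a RefSeq entry 9 had one, and of the 23 not called 13. In oviductal organoids against oviduct tissue it was 7 of 14 higher members, 2 of 9 lower ones and 13 of 29 not called. In tumors against clones it was 8 of 17 lower members and 14 of 33 not called. In OSE organoids against OSE tissue it was 6 of 15 higher members and 16 of 37 not called. No relation of runs to direction was tested. Smooth muscle genes (9 of 10 tested) and ciliated cell genes (9 of 9) were lower in tumors, and fibroblast (12 of 16), myeloid (10 of 11) and proliferation genes (18 of 24) higher, and their part in the members' levels was not tested.

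Tumors against tumor-derived organoids, which lack most host cells, gave 10 of 70 members lower and 5 higher, 21.4% against 27.4% of 10605 genes (15.1% higher, 12.3% lower). *Rpsa* was at 672, 1066, 729 and 1492 CPM in T1-mes, T2-epi, T3-mes and T4-epi, below each tumor (1.49, SE 0.29, adjusted p = 0.0039). *Rps14* was at 925, 1006, 709 and 1011 CPM against 1100 to 2173 CPM in tumors (median 1785), again without overlap (0.96, SE 0.22, adjusted p = 0.0092). Tumors and these organoids did not overlap in 18.6% of the members and 21.7% of all genes tested. *Rps20* was also called (0.78, SE 0.26, adjusted p = 0.045), but not in 9 of the 10 fits without 1 library. *Rpl29* (-1.03, SE 0.24) and *Rps19* (-1.02, SE 0.25) were lower in tumors, the ranges of both overlapping those of the organoids. The tumor comparisons share the tumor libraries. Myeloid genes summed to 1514 to 4238 CPM in tumors and 28.1 to 329 CPM in tumor-derived organoids, with *Ptprc*, *C1qa*, *C1qb*, *C1qc*, *Lyz2*, *Fcer1g* and *Tyrobp* at 3 counts or fewer in each organoid line, and fibroblast genes to 21799 CPM or more in tumors and 64.1 to 18043 CPM in the organoids. Their part in the members' levels was not tested.

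Of the 64 members called at all, 52 were called in at least 2 of the 11 tests, the interaction included, and 30 in at least 3. *Rpsa* was called in 7, 6 times higher and once lower, *Rps19* in 6 (1 higher, 5 lower) and *Rpl27* in 5. In all, 24 members were called higher in some comparison and lower in another. The tests share libraries, and the share of all genes called as often was not computed. In a single test up to 51.1% of all genes were called. *Rpl35a*, *Rpl39*, *Rpl7*, *Rps13*, *Rps15a*, *Rps25* and *Rps9* were tested and never called. *Rpl39*, which encodes a small protein of the exit tunnel, was at 389 to 915 CPM in tumors and 537 to 824 CPM in oviduct tissue (log2 fold change -0.16, SE 0.25). The median transcript length of the 34 members lower in tumors than in oviduct tissue was 777 bases, that of the 6 higher was 1256 bases and that of the 31 not called was 946 bases, a description with no test.

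Genes that build and use ribosomes were described by lists. Of ribosome biogenesis genes, which process ribosomal RNA and assemble the subunits, 42 of 78 tested were higher and 1 lower in OSE than in oviduct tissue, with a median of 0.65 (*Nop56*, a box C/D snoRNP protein, 1.72, SE 0.23), where 24.3% and 26.9% of all genes were called. In tumors against oviduct tissue 31 of 89 were higher and 6 lower (median 0.51 against -0.44 for the members), among them *Bop1* (2.19, SE 0.45), which acts in large subunit assembly. In OSE organoids against OSE tissue 3 of 89 were higher and 9 lower (median -0.25 against 0.61), where 14.5% and 18.6% of all genes were called. Of translation factors 23 of 50 were higher and 2 lower in oviductal organoids than in oviduct tissue, against 18.7% and 24.2% of all genes. Among those higher was *Eif4a1*, an RNA helicase of the cap complex (1.64, SE 0.18). In tumors against oviduct tissue 16 of 49 were higher and 7 lower (*Eif3b* 2.44, SE 0.35). Mitochondrial ribosomal protein genes had 17 of 74 higher and 15 lower in that last comparison (median -0.16), near the 23.7% and 22.4% of all genes, and 0 higher and 7 lower of 73 in Cas9-GFP organoids against C57BL/6 oviductal organoids, where 13.0% and 13.3% of all genes were called. Of genes that control translation, *Eif4ebp1*, which encodes an inhibitor of cap-dependent translation released by mTOR, was higher in oviductal organoids (2.81, SE 0.37) and in tumors (3.14, SE 0.55) than in oviduct tissue, and *Mycn*, a driver of ribosome production, was higher in OSE than in oviduct tissue (3.44, SE 0.30).

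Some further genes of ribosomal proteins have symbols outside the rule. *Fau*, a ubiquitin-like fusion to a small subunit protein, was at 316 to 511 CPM in tumors, below the 658 to 881 CPM of oviduct tissue (-1.09, SE 0.20). *Rps3a1* was higher in tumors than in oviduct tissue (0.67, SE 0.23), and *Gnb2l1*, the gene of the ribosome-bound scaffold RACK1, was lower in Cas9-GFP than in C57BL/6 oviductal organoids (-0.82, SE 0.16). Among near copies *Rps27l* was at 60.1 to 302 CPM, *Rpl36al* reached 358 CPM, *Rpl7l1* 80.5 CPM, and *Rpl22l1* and *Rpl10l* at most 17 and 8 counts. *Rpl39l* had 66 counts in TBP tumor 1 and *Rpl3l*, the form of striated muscle, at most 85 counts, in a tumor as well.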

How the data were processed

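RNA of the 27 libraries was prepared by CEL-Seq2 and, by the study's methods, reads were mapped with BWA to GRCm38, keeping unique sense matches; the submitters' notes also name DESeq2 1.18.0. The gene annotation was not given in the sources used here. The authors deposited raw counts per gene without correction for molecular identifiers. From these counts 1 spike-in row was left out, leaving 18305 genes. Totals of 82239 to 4531767 counts set the precision, and intervals between libraries cover only their own spread: the study's methods describe separate tissue samples, organoid lines and tumors, and the labels do not tie them to animals. Each pair of groups was fitted in edgeR 4.0.16 (R 4.3.3; TMM, filterByExpr, quasi-likelihood test, Benjamini-Hochberg over all genes, threshold 0.05), and the interaction over 4 groups likewise. Alternatives were DESeq2 1.42.0, RLE size factors, total counts, TMM without the members, no filter, a fit of all 27 libraries, a replicate block and leaving out each library. Scripts were tested on simulated data. Named were the 3 highest and 3 lowest called members of each comparison, 20 members chosen for what is known of them (19 in the table), members at 3 counts or fewer, the 3 largest called changes of other lists, and near copies; some genes are not reported here. Members and lists were chosen with earlier results of these data known. Promoters are RefSeq, GRCm38.p6 (55 of 75 members matched).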

Additional observations from a re-analysis of the deposited data

Results flagged for a closer look

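Of 62 groups of 4 to 10 libraries tested for a library that stands apart, 1 was past Dixon's critical value, where chance gives about 5% of groups. *Rps21* was at 577 CPM in T3-mes and at 1014 to 1036 CPM in the other 3 tumor-derived organoid lines. The change with culture differed between OSE and oviduct by 1.51 on the log2 scale for *Rps2* and by 1.58 for *Rpsa*, both past the threshold of edgeR's interaction test.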

How the results depend on the processing

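Depth limits TBP clone 1 (82239 counts), and single libraries decide the OSE organoid comparisons. Scaling by total counts alone moved the median of all genes to 0.37 between the tissues, -0.50 in OSE culture, 0.21 in Cas9-GFP organoids, 0.39 for tumors against clones and 0.40 for tumors against tissue. It gave 39 higher and 1 lower between the tissues, 6 and 2 in OSE culture, 11 and 10 in Cas9-GFP organoids, 1 lower in TBP clones, 4 higher in tumors against clones and 14 higher in tumors against tissue. One fit of all 27 libraries gave 0 higher and 1 lower between the tissues, 6 and 5 in oviduct culture, 1 higher between the organoids, 2 and 10 in Cas9-GFP organoids, 1 lower in TBP clones and 4 higher in tumors against clones. DESeq2 gave 1 lower in OSE culture, 1 higher between the organoids, 1 lower in TBP clones, 4 higher in tumors against clones, 9 higher in tumors against their organoids, and 7 for the interaction. Without a filter there was 1 higher between the organoids, 1 lower in TBP clones and 2 higher in tumors against clones, where RLE size factors gave 3. The cause of these moves was not tested. The share of all genes called is not given for these settings, the fits without 1 library or the replicate block. Their counts thus do not set the members apart from other genes.

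With 1 library left out, the counts higher and lower ranged over 4 to 13 and 1 to 2 between the tissues, 11 to 21 and 9 to 11 in oviduct culture, 2 to 49 and 0 to 5 in OSE culture, 0 to 33 and 0 to 0 between the organoids, and 3 to 5 and 12 to 24 in Cas9-GFP organoids. They ranged over 0 to 0 and 0 to 1 in TBP clones, 0 to 0 and 0 to 0 between mes and epi lines, 1 to 2 and 15 to 22 for tumors against clones, 3 to 9 and 29 to 36 against tissue and 4 to 6 and 7 to 12 against their organoids, and 2 to 19 for the interaction. The ranges for OSE culture, between the organoids, between mes and epi lines and for the interaction include fits with 1 library in a group. The spread of that group is then not measured, so no conclusion is drawn from the ends of these ranges. Of the values of named members, 413 kept their side of the threshold and 62 lost the call with a library left out, and 393 and 24 did so under the other settings, with no sign reversed. *Rps19* in tumors against clones was not called without TBP clone 2 (-0.80, adjusted p = 0.116, edgeR).

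Libraries with the same replicate number correlated by 0.03 to 0.12 in their deviations, so the numbers were not taken to pair the samples. With the replicate block the counts higher and lower were 13 and 3 between the tissues, 19 and 11 in oviduct culture, 5 and 23 in Cas9-GFP organoids, 0 and 1 in TBP clones and 0 and 0 between mes and epi lines.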

Other observations

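A comparison chosen after the values were seen set the 16 libraries of Cas9-GFP descent (Cas9-GFP organoids, clones, tumors and tumor-derived organoids) beside the 11 C57BL/6 libraries. In 6 of 71 members (*Rpl14*, *Rpl27a*, *Rpl3*, *Rps19* and *Rps20* among them) each library of Cas9-GFP descent was below each C57BL/6 library, and 0 were above, against 0.407% and 0.195% of 12287 genes. *Rps20* lay at 223 to 786 CPM in the former and 1085 to 2374 CPM in the latter, and *Rpl14* at 262 to 749 CPM and 867 to 1520 CPM. Strain, the Cas9 allele and any batch cannot be told apart, and the tumors hold cells of NSG hosts.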
